A study of Rattus norvegicus with 36 samples.

Results

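A set of 10 AP-1 and immediate early genes was followed through 11 groups of H9C2 cells: the Fos family members Fos, Fosb, Fosl1 and Fosl2, the Jun family members Jun, Junb and Jund, and Egr1, Ier3 and Myc. They were picked by gene symbol out of the 24275 gene identifiers in the tables, and each of the 10 symbols matched 1 identifier. H9C2 is a rat cardiac myoblast line. The cells received 25 nmol/L of a synthetic miRNA for 24 h, either a mimic control (MC), miR-125b, or 1 of 4 isomiRs that differ from miR-125b at the 3′ end. They were then held for a further 24 h in hypoxia or in normoxia, giving 12 groups of 3 libraries. Per-library counts of 33 libraries in 11 groups were used, and normoxic MC is represented only by a mean that the authors computed. Under hypoxia the cells were in serum-free medium with low glucose, whereas the normoxic cells had fresh medium, so oxygen, serum and glucose cannot be told apart in any comparison of hypoxia with normoxia. The labels do not say whether the 3 libraries of a group came from separate cultures, so p-values measure the spread between these libraries, which may be technical.

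Immediate early genes are transcribed within minutes of a stimulus such as serum or stress, from factors already present in the cell, and most of their mRNAs are short-lived. Fos and Jun proteins pair through leucine zippers to form AP-1, which binds DNA and switches on later genes; Fosl1 and Fosl2 belong to the slower members of the family. Egr1 is a zinc finger factor induced by serum response factor, Ier3 is a stress-response protein linked to survival and to ERK signalling, and Myc drives growth, ribosome production and entry into the cell cycle. A miRNA acts by pairing with target mRNAs mainly through its seed, bases 2 to 8 from the 5′ end.

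The RefSeq mature rat miR-125b lies at chr11:29732588-29732609 on the plus strand of GRCr8, within Mir125b2. The hairpin of Mir125b1 holds the same mature sequence, at chr8:50850050-50850071 on the plus strand. The mimics are shown because the isomiRs are named for what was changed at their 3′ end. The isomiR sequences were derived from the mature sequence by the change in each name, and the seed is in capitals.
miR-125b: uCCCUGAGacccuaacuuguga
Plus A: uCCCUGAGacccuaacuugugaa
Trim A: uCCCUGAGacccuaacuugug
Trim AG: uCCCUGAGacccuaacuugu
Trim AGU: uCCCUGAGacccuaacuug
All 5 share the seed, and their lengths run from 19 to 23 bases.

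The libraries held 28361216 to 42672584 counts, with Hypoxia Trim AG the deepest group. Some libraries stood apart. In replicate 1 of Normoxia miR-125b the level of Cav1, a caveolar coat gene, was 102 CPM (counts scaled to the library total) against 282 and 263 in its partners, and in replicate 1 of Normoxia Plus A it was 269 CPM against 98.0 and 98.3. The hypoxic libraries gave 241 to 246 CPM with miR-125b and 93.9 to 100 CPM with Plus A, so each of these replicates carried the Cav1 level of the other mimic, against its label. Comparisons that use either group were also fitted without both of these replicates, and the values are given where the normoxic and the hypoxic effects are described. Replicate 2 of Hypoxia Trim AGU differed most from its partners across genes, and it was the lowest of its group for 7 of the 10 genes. Replicate 2 of Hypoxia Trim AG was the lowest for 9 of the 10. Of the 7 myoblast markers, Myod1 (17.1 to 146 CPM), Cdh15 (190 to 599 CPM) and Myog (10.4 to 359 CPM) were present in every library. Chrna1 was at 0.458 to 32.1 CPM and Des at 0.855 to 4.98 CPM, while Pax7 reached at most 0.549 CPM and Myf5 0.0703 CPM. Of the 7 cardiac markers, Nkx2-5, Myh6, Nppa and Ryr2 stayed below 1 CPM and Tnni3 at or below 3.43 CPM, whereas Tnnt2, cardiac troponin T, was at 9.22 to 316 CPM and Gata4 at 8.72 to 16.4 CPM. The macrophage and epithelial marker lists summed to at most 3.67 and 0.549 CPM. Of the endothelial markers only Tie1 was listed, at most at 0.194 CPM, while Pecam1, Cdh5 and Kdr had no values. The myoblast markers summed to 838 to 879 CPM in Hypoxia MC, 564 to 794 CPM over the normoxic groups and 250 to 547 CPM in hypoxia with miR-125b or an isomiR. The cardiac markers summed to 307 to 329 CPM in Hypoxia MC, 29.0 to 69.4 CPM in the other hypoxic groups and 27.4 to 59.7 CPM in normoxia. Of the 5 fibroblast markers, the collagen genes Col1a1 (5403 to 27700 CPM) and Col1a2 (772 to 4542 CPM) were far above the rest. Thy1 was at 79.8 to 261 CPM, Dcn at 0.797 to 44.2 CPM and Pdgfra at most at 0.846 CPM. The fibroblast markers, led by Col1a1, summed to 17820 to 18470 CPM in Hypoxia MC. They were higher in hypoxia with miR-125b (28620 to 30330 CPM) and Plus A (25740 to 27270 CPM), lower with Trim AG (6382 to 13410 CPM), and spread across the MC range with Trim A (13720 to 25960 CPM) and Trim AGU (10680 to 19640 CPM). All 3 sums moved with the groups compared below, and their part in the results was not tested. In such bulk libraries fewer cells expressing a gene and less of its RNA per cell cannot be told apart.

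Per unit of gene length, Jund, a constitutive AP-1 subunit, had the highest level of the 10 genes, with a mean of 101 FPKM (fragments scaled to gene length and library total) over the 33 libraries. Ier3 followed with 51.4, Junb with 50.7, Fosl2 with 44.6, Jun with 39.0 and Fosl1 with 38.9 FPKM. Egr1 (16.8 FPKM) and Myc (14.6 FPKM) were lower. Fos, the classical AP-1 inducible subunit, had 3.20 FPKM and Fosb 0.472 FPKM, the lowest levels of the 10 genes, a day after the change of medium. Fosb rested on 15 to 104 counts per library and Fos on 67 to 260, which limits the precision of both. Between the highest and the lowest group mean, in CPM, Fosb spanned 4.57-fold, Myc 3.65-fold, Ier3 3.39-fold and Fos 3.28-fold, while Jund spanned 1.49-fold and Fosl2 1.40-fold.

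**Figure D1:**
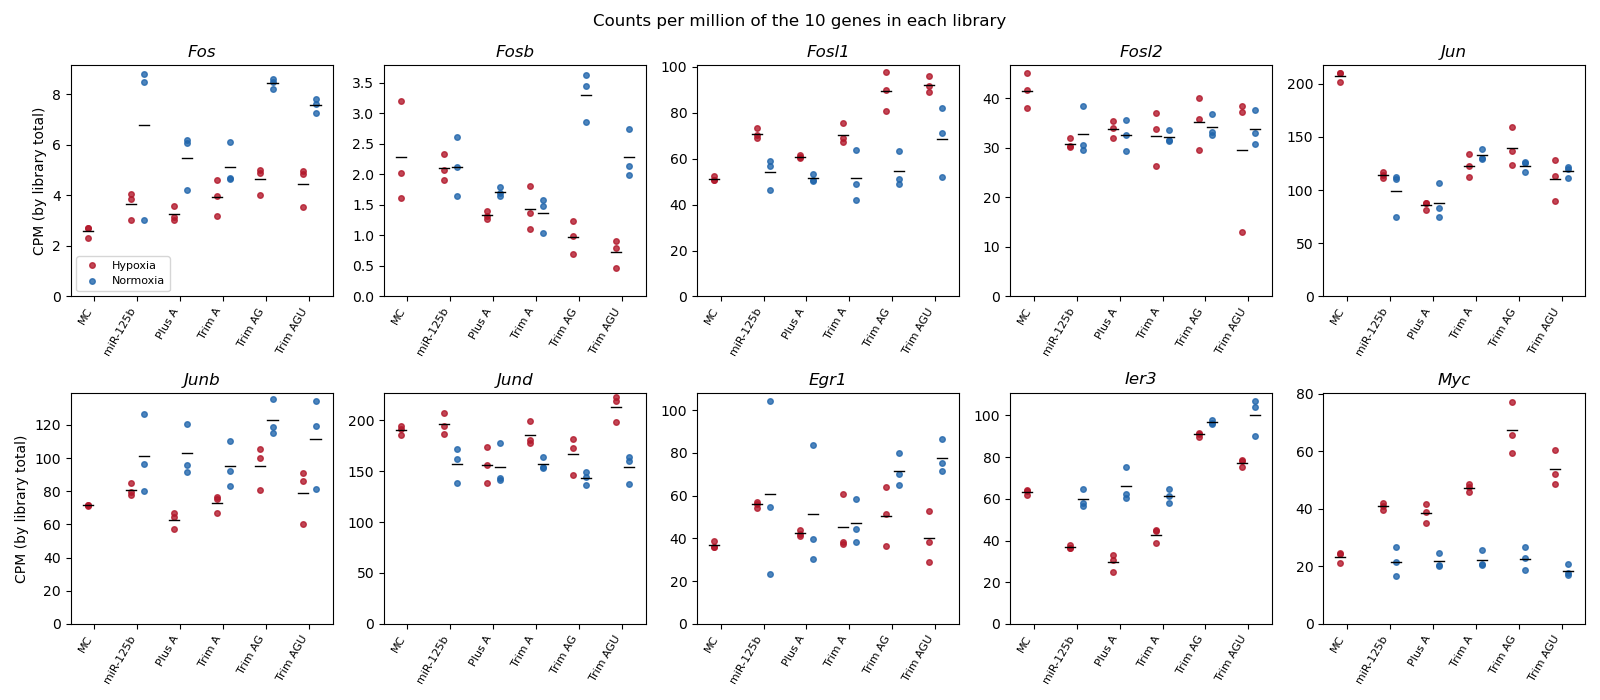
CPM by library total of the 10 genes (1 panel each, linear axis from 0) in every library, hypoxia in red and normoxia in blue, with mimics along the horizontal axis and a black bar at each group mean. Myc stays at 16.6 to 26.9 CPM in all normoxic libraries and reaches 35.1 to 77.3 CPM in every hypoxic library that received miR-125b or an isomiR; normoxic MC is not plotted.

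The first question was what miR-125b and its isomiRs did to these genes relative to MC in hypoxia. A gene was called when edgeR's quasi-likelihood test gave a Benjamini-Hochberg adjusted p below 0.05 and the change was at least 1.5-fold. By these calls Myc rose with all 5 mimics, Jun fell with 4, and Ier3 split the mimics by direction. Fos was called higher with the 3 trimmed isomiRs and Fosl1 with the shortest of them (Trim AG, Trim AGU). The 1.5-fold limit sets these groupings: Jun with Trim AG and Fosl1 with the other mimics moved the same way by less. Fos, Fosl1 and Jun were not called against miR-125b with any isomiR in hypoxia. Of the 10 genes, 4 were called with miR-125b (2 higher, 2 lower), against 21.9% of all genes tested. Plus A gave 4 (1 higher, 3 lower), against 24.8% of genes, and Trim A 3 (2 higher, 1 lower), against 28.1%. Trim AG gave 5 (4 higher, 1 lower), against 37.2%, and Trim AGU 5 (3 higher, 2 lower), against 23.8%. Since a large part of the transcriptome moved in each comparison, these counts describe the 10 genes and do not set them apart. The 5 comparisons share the same 3 MC libraries.

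Myc (chr7:102586313-102591237, plus strand, build not named in the files) was at 24.7, 24.2 and 21.1 CPM in Hypoxia MC. It was at 42.1, 40.9 and 39.6 CPM with miR-125b, 41.6, 35.1 and 39.1 CPM with Plus A, and 47.7, 48.8 and 45.8 CPM with Trim A. The highest levels came with Trim AG, at 77.3, 59.5 and 65.5 CPM, and with Trim AGU, at 60.4, 48.5 and 52.2 CPM. Every library with miR-125b or an isomiR lay above every MC library. On the log2 scale the rise over MC was 0.84 ± 0.0659 (SE; adjusted p = 1.01e-06) with miR-125b, 0.75 ± 0.0848 (adjusted p = 3.96e-05) with Plus A and 1.07 ± 0.0826 (adjusted p = 3.42e-05) with Trim A. It was 1.59 ± 0.109 (adjusted p = 6.69e-06) with Trim AG and 1.34 ± 0.118 (adjusted p = 0.000878) with Trim AGU. All 5 calls held under every refit tried and with any 1 library left out.

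Jun, the AP-1 subunit that pairs with Fos proteins or with itself, was highest in Hypoxia MC, at 202, 210 and 211 CPM. With miR-125b it was at 117, 114 and 111 CPM and with Plus A at 81.3, 87.8 and 88.3 CPM. Trim A gave 134, 112 and 122 CPM, Trim AG 159, 124 and 137 CPM, and Trim AGU 128, 89.7 and 113 CPM. No library with a mimic of the miR-125b family reached the MC range. Jun fell by 0.83 on the log2 scale with miR-125b (SE 0.033, adjusted p = 6.63e-09), by 1.25 with Plus A (SE 0.0469, adjusted p = 3.23e-08), by 0.71 with Trim A (SE 0.0746, adjusted p = 0.000146) and by 0.78 with Trim AGU (SE 0.113, adjusted p = 0.0044). With Trim AG the difference of -0.51 (95% interval -0.72 to -0.29, adjusted p = 0.0016) was under 1.5-fold.

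Ier3 was at 61.8, 64.3 and 63.8 CPM in Hypoxia MC, and its direction depended on the isomiR. It was lower with miR-125b, at 37.8, 36.2 and 36.5 CPM, and with Plus A, at 24.9, 30.9 and 32.9 CPM. It was higher with Trim AG, at 89.6, 91.6 and 91.3 CPM. None of these libraries overlapped the MC libraries. Ier3 fell by 0.74 with miR-125b (SE 0.043, adjusted p = 1.03e-07) and by 1.08 with Plus A (SE 0.086, adjusted p = 3.66e-06). With Trim AG it rose by 0.59 (SE 0.0666, adjusted p = 0.000101), which sits at the 1.5-fold limit: 5 of 11 alternative fits kept the call, while the adjusted p stayed at or below 0.00158 in all of them. It fell short of that size with DESeq2, with library totals in place of TMM, with all 33 libraries in 1 fit, and without Hypoxia MC replicate 1, Hypoxia MC replicate 3 or Hypoxia Trim AG replicate 2. Trim A gave 38.6, 44.8 and 45.1 CPM (log2 difference -0.52, adjusted p = 0.0011) and Trim AGU gave 75.1, 78.0 and 78.7 CPM (log2 difference 0.43, adjusted p = 0.021), both under 1.5-fold.

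Among the Fos family, Fosl1 rose while Fosb fell with Trim AG and Trim AGU. Fosl1, which lacks the activation domain of Fos and is a common AP-1 subunit in cultured mesenchymal cells, was at 50.6, 52.3 and 50.5 CPM in Hypoxia MC. It was at 97.9, 80.7 and 90.0 CPM with Trim AG (log2 change 0.87 ± 0.0813, adjusted p = 3.46e-05) and at 96.0, 91.7 and 88.9 CPM with Trim AGU (0.99 ± 0.099, adjusted p = 0.00132). The other mimics also lay above MC without overlap, but under 1.5-fold, with log2 differences of 0.27 for Plus A, 0.50 for Trim A and 0.51 for miR-125b. Fosb was at 3.21, 1.61 and 2.02 CPM in MC. With Trim AG it was at 1.23, 0.701 and 0.984 CPM (log2 change -1.16 ± 0.316, adjusted p = 0.0116), and with Trim AGU at 0.907, 0.471 and 0.793 CPM (-1.52 ± 0.366, adjusted p = 0.0225). Without Hypoxia MC replicate 1, the highest of the MC libraries, the adjusted p became 0.0517 in the Trim AG comparison and 0.096 in that of Trim AGU. The Trim AGU call was also lost without Hypoxia MC replicate 3 or Hypoxia Trim AGU replicate 3. Plus A, at 1.27, 1.32 and 1.39 CPM, gave a lower call for Fosb that 5 of 11 alternatives kept (-0.76 ± 0.271, adjusted p = 0.0354). DESeq2 ended it, as did leaving out Hypoxia MC replicate 1 or 3 or any 1 of the Plus A libraries, with the adjusted p reaching 0.169.

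Fos was lowest in Hypoxia MC, at 2.71, 2.72 and 2.30 CPM. It was at 4.60, 3.20 and 3.97 CPM with Trim A, 5.01, 4.03 and 4.87 CPM with Trim AG, and 4.97, 3.55 and 4.85 CPM with Trim AGU, above every MC library in each case. The log2 rise was 0.65 ± 0.185 (adjusted p = 0.0183), 0.91 ± 0.167 (adjusted p = 0.00156) and 0.92 ± 0.197 (adjusted p = 0.0156). The Trim AG call held in all alternatives. The Trim A call was lost without Hypoxia MC replicate 3 (adjusted p = 0.0677) or Hypoxia Trim A replicate 1, and the Trim AGU call without any 1 of the MC libraries (adjusted p up to 0.0851). With miR-125b the difference was 0.54 (95% interval 0.16 to 0.92), and with Plus A it was 0.36 (-0.03 to 0.74). Egr1 was at 36.1, 35.8 and 38.9 CPM in MC and at 57.2, 54.1 and 56.2 CPM with miR-125b, a rise of 0.63 ± 0.0481 (adjusted p = 7.94e-07). In a fit over all 33 libraries, which takes in the wide spread of Egr1 in other groups, the adjusted p was 0.147. Fosl2, Junb and Jund were not called against MC with any mimic. The largest difference among them was that of Junb with Trim AG, which lay above MC by 0.48 on the log2 scale (95% interval 0.26 to 0.70).

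**Figure D2:**
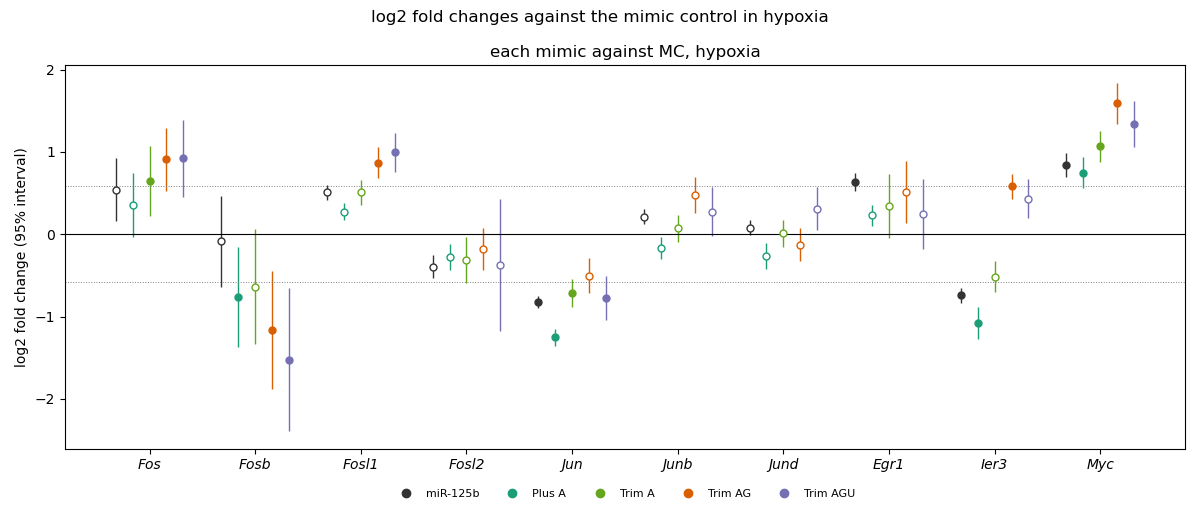
Log2 fold change of each gene against Hypoxia MC for the 5 mimics (colours), with 95% intervals, from edgeR on 3 against 3 libraries; filled points are called, and dotted lines mark 1.5-fold. Myc lies above the upper line with all 5 mimics (0.75 to 1.59), and Ier3 lies below zero with Plus A, Trim A and miR-125b but above it with Trim AG and Trim AGU.

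The second question was whether changing the 3′ end of miR-125b changed these genes. Against miR-125b in hypoxia, Trim AG and Trim AGU raised Ier3 and lowered Fosb, and Trim AG raised Myc further. Of the 10 genes, 1 was called lower with Plus A (2.03% of all genes tested were called), none with Trim A (0.873%), 3 with Trim AG (2 higher, 1 lower, against 19.3%) and 2 with Trim AGU (1 higher, 1 lower, against 3.75%). For Trim A, 3 of the 10 genes had an unadjusted p below 0.05, and DESeq2 called none. The 4 comparisons share the miR-125b libraries.

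For Ier3 the values by library given above put Trim AG and Trim AGU well clear of miR-125b, at 36.2 to 37.8 CPM. The rise was 1.32 ± 0.0657 on the log2 scale with Trim AG (adjusted p = 1.45e-05), a 2.50-fold difference kept by all 11 alternatives. It was 1.16 ± 0.104 with Trim AGU (adjusted p = 0.00409), a 2.24-fold difference. Without miR-125b replicate 1, 2 or 3 in turn the Trim AGU call was lost, the adjusted p reaching 0.0712, with the size little changed. A fit with a replicate block, which adds the replicate number as a term, also lost the Trim AGU call. Removal of only the last base (Trim A) gave a difference of 0.22 (95% interval 0.03 to 0.41, adjusted p = 0.17), and an added A (Plus A) gave -0.34 (-0.55 to -0.12, adjusted p = 0.041), under 1.5-fold.

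Myc exceeded its miR-125b level by 0.74 ± 0.0942 with Trim AG (adjusted p = 0.000589), again in all alternatives. The differences for Trim AGU, 0.48 (0.25 to 0.72, adjusted p = 0.049), Trim A, 0.22 (0.07 to 0.37, adjusted p = 0.11), and Plus A, -0.10 (-0.25 to 0.05, adjusted p = 0.35), were not called. The intervals for Trim A and Plus A therefore leave out a 1.5-fold difference in either direction. Fosb was at 2.06, 1.90 and 2.32 CPM with miR-125b, above every Trim AG and Trim AGU library. It fell by 1.09 with Trim AG (SE 0.244, adjusted p = 0.00831), a call that all alternatives kept. The fall by 1.45 with Trim AGU (SE 0.286, adjusted p = 0.044) was kept by 4 of 11 alternatives and the fall by 0.68 with Plus A (SE 0.187, adjusted p = 0.0392) by 1 of 11. Both were lost without any 1 of the miR-125b libraries, the first also without Hypoxia Trim AGU replicate 3 and the second without any 1 of the Plus A libraries, and the adjusted p reached 0.239 and 0.193. With no filter on low counts, and with the replicate block, both were lost as well. The Trim AGU call was also lost with library totals in place of TMM, and the Plus A call with DESeq2 or a joint fit of all libraries. Jun, Junb, Jund, Fosl1 and Egr1 were each lower with Plus A than with miR-125b by 0.24 to 0.42 on the log2 scale, with adjusted p of 0.018 or less and no change of 1.5-fold.

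In normoxia Ier3 was called higher than with miR-125b under Trim AG and Trim AGU, and no difference in Myc was called. None of the 10 genes was called with Plus A, where 0% of all genes were called, and none with Trim A (0.414%). Trim AG gave 2 higher (13.9%) and Trim AGU 1 higher (11.4%). With Plus A no gene of the 10 had an unadjusted p below 0.05, and with Trim A 2 had one; DESeq2 called none in either. Ier3 was at 58.2, 56.5 and 64.7 CPM with miR-125b, 96.4, 96.0 and 97.8 CPM with Trim AG, and 107, 90.0 and 104 CPM with Trim AGU. The groups did not overlap, the rise was 0.65 ± 0.0605 (adjusted p = 6.03e-05) and 0.74 ± 0.0948 (adjusted p = 0.000723), and all 12 alternatives kept each call. Fosb was at 3.44, 3.62 and 2.85 CPM with Trim AG and 1.64, 2.61 and 2.12 CPM with miR-125b, a rise of 0.59 ± 0.206 (adjusted p = 0.0476) that 2 of 12 alternatives kept. It was lost with DESeq2, with no filter on low counts, with the replicate block, with all libraries in 1 fit, and without Normoxia miR-125b replicate 1 or 3 or any 1 of the Trim AG libraries, the adjusted p reaching 0.138. Myc differed from miR-125b by 0.02 with Plus A (-0.36 to 0.39), 0.06 with Trim A (-0.30 to 0.42), 0.02 with Trim AG (-0.37 to 0.41) and -0.24 with Trim AGU (-0.61 to 0.14).

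The replicates whose Cav1 level went against their label bear on these normoxic values. Fos in Normoxia miR-125b was at 3.01, 8.49 and 8.83 CPM, and Egr1 at 23.4, 54.8 and 104 CPM. With both replicate 1 libraries left out, 1.12% of all genes were called between the normoxic Plus A libraries and those with miR-125b. Jun then lay 0.47 lower with Plus A (adjusted p = 0.00533), under 1.5-fold. Fos fell by 0.74 with Trim A against miR-125b (adjusted p = 0.0484). Ier3 kept its rise with Trim AG (0.63, adjusted p = 0.000111) and Trim AGU (0.72, adjusted p = 0.00476). The difference of Fosb with Trim AG became 0.44 (adjusted p = 0.119), and that of Myc with Trim AGU became -0.40 (95% interval -0.72 to -0.07, adjusted p = 0.0896).

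The difference between the hypoxic and the normoxic effect was tested directly, as the change from miR-125b in hypoxia minus that in normoxia. For Trim AG 3 genes were called (2 higher, 1 lower, against 11.3% of all genes). Fosb gave -1.69 ± 0.319 (adjusted p = 0.00297), Ier3 0.66 ± 0.0867 (adjusted p = 0.000327) and Myc 0.70 ± 0.212 (adjusted p = 0.0298). Fosb and Ier3 held in all 18 alternatives. Myc held in 11 of 18, and was lost without replicate 2 or 3 of Hypoxia miR-125b, Normoxia miR-125b or Normoxia Trim AG and without Hypoxia Trim AG replicate 3, with the adjusted p up to 0.0759. Without both replicate 1 libraries named above, the values were -1.54 for Fosb (adjusted p = 0.00745), 0.68 for Ier3 (adjusted p = 0.000717) and 0.86 for Myc (adjusted p = 0.00832). None of the 10 genes was called for Plus A (0.0193% of all genes), Trim A (0.605%) or Trim AGU (0.966%). Unadjusted p was below 0.05 for 2, 0 and 3 of the genes, and DESeq2 called 0, 0 and 2.

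**Figure D3:**
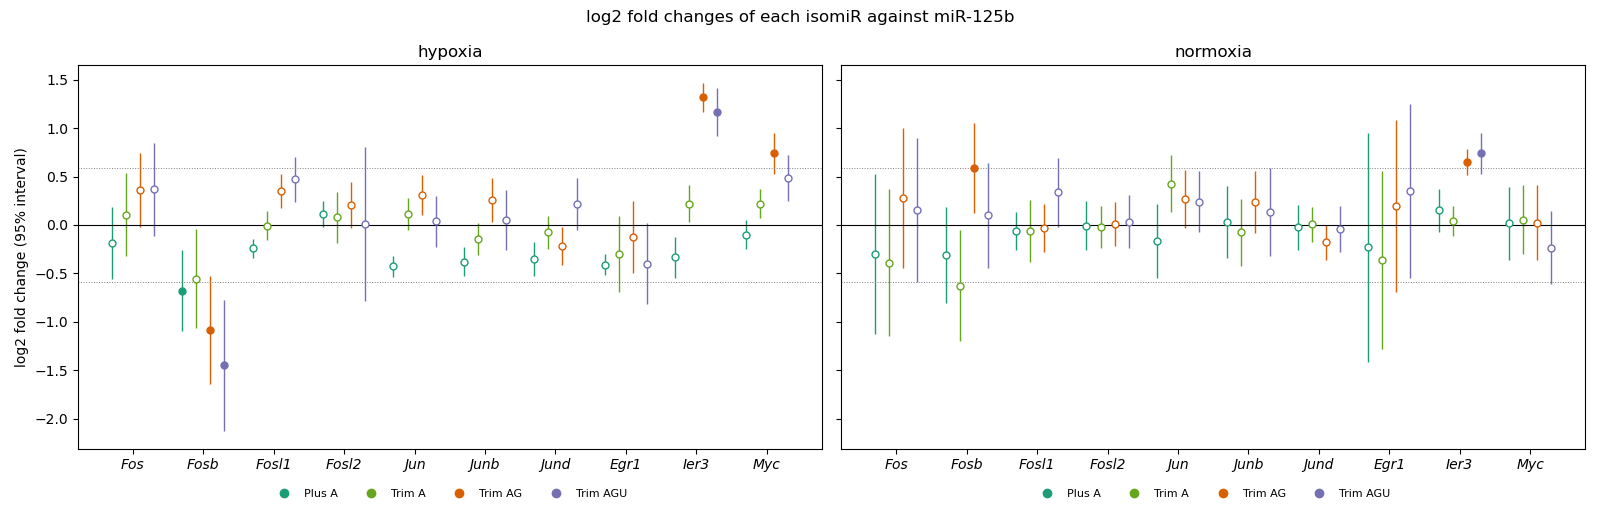
Log2 fold change of each gene with the 4 isomiRs (colours) against miR-125b, hypoxia on the left and normoxia on the right, with 95% intervals; filled points are called, and dotted lines mark 1.5-fold. Ier3 with Trim AG and Trim AGU is above the line on both sides, with a larger rise in hypoxia for Trim AG (for Trim AGU the difference of 0.46, adjusted p = 0.127, was not called), while Fosb with Trim AG is at -1.09 in hypoxia and 0.59 in normoxia.

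Under each mimic, hypoxia in serum-free medium was then set against normoxia. Myc was higher and Fos lower in hypoxia, the latter in 4 of 5 mimics, and Ier3 was lower in hypoxia with Trim A, Plus A and miR-125b. With miR-125b 3 genes were called (1 higher, 2 lower, against 20.9% of all genes), with Plus A 4 (1 higher, 3 lower, against 22.8%) and with Trim A 2 (1 higher, 1 lower, against 26.5%). Trim AG gave 4 (2 higher, 2 lower, against 32.8%) and Trim AGU 4 (1 higher, 3 lower, against 27.0%).

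Myc in normoxia lay between 16.6 and 26.9 CPM in all 15 libraries, with group means of 18.5 ± 2.02 (SD, n = 3) with Trim AGU to 22.7 ± 3.95 CPM with Trim AG. The rise in hypoxia was 0.83 ± 0.137 on the log2 scale with miR-125b (adjusted p = 0.000796), 0.71 ± 0.102 with Plus A (adjusted p = 0.00032) and 1.01 ± 0.103 with Trim A (adjusted p = 9.72e-05). It was 1.57 ± 0.138 with Trim AG (adjusted p = 2.41e-05) and 1.58 ± 0.149 with Trim AGU (adjusted p = 0.00056), 2.98-fold in both. Each held under all alternatives. Hypoxia MC, at 21.1 to 24.7 CPM, fell inside the normoxic range of the other mimics. Normoxia MC has no counts per library here, so hypoxia was not tested against normoxia under MC. Its Myc level is known only as the authors' mean, without spread, of 286 normalized counts, against 648 in Normoxia Plus A.

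Fos was at 6.07, 4.20 and 6.18 CPM in Normoxia Plus A, 8.62, 8.23 and 8.51 CPM in Normoxia Trim AG and 7.83, 7.28 and 7.63 CPM in Normoxia Trim AGU, in each case above its hypoxic partner. It fell by 0.86 with Plus A (SE 0.185, adjusted p = 0.00364), by 0.86 with Trim AG (SE 0.137, adjusted p = 0.000708) and by 0.73 with Trim AGU (SE 0.194, adjusted p = 0.0264). The Trim AGU call was lost without Hypoxia Trim AGU replicate 3 or any 1 of the Normoxia Trim AGU libraries, with the adjusted p up to 0.102. With miR-125b the groups overlapped, and the fall by 0.97 (SE 0.344, adjusted p = 0.0403) was kept by 5 of 12 alternatives. It was lost with library totals in place of TMM, without any 1 of the hypoxic libraries, or without Normoxia miR-125b replicate 2 or 3 (adjusted p up to 0.139), whereas without Normoxia miR-125b replicate 1 it was 1.33 lower (log2 difference -1.33, adjusted p = 9.6e-05). Trim A gave -0.47 (-0.91 to -0.03, adjusted p = 0.076).

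Ier3 fell in hypoxia by 0.78 with miR-125b (SE 0.0637, adjusted p = 1.08e-05) and by 1.27 with Plus A (SE 0.118, adjusted p = 2.02e-05), both in all 12 alternatives. The fall by 0.59 with Trim A (SE 0.0903, adjusted p = 0.000863) was close to 1.5-fold and was kept by 7 of 11. It dropped under that size with library totals in place of TMM, with all libraries in 1 fit, and without Hypoxia Trim A replicate 1 or Normoxia Trim A replicate 1. With Trim AG the 2 conditions differed by -0.09 (-0.24 to 0.07), and with Trim AGU by -0.33 (-0.64 to -0.02, adjusted p = 0.098). Fosb fell by 1.75 with Trim AG (SE 0.238, adjusted p = 0.000285), with no overlap, and by 1.63 with Trim AGU (SE 0.326, adjusted p = 0.0101; 0.0503 without Normoxia Trim AGU replicate 1). With miR-125b its difference was -0.10 (-0.58 to 0.38).

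Other genes were called under 1 mimic each with every library kept. Junb, an AP-1 subunit that can restrain Jun, fell with Plus A from 96.0, 91.8 and 121 CPM in normoxia to 57.4, 64.2 and 66.9 CPM (log2 change -0.82 ± 0.107, adjusted p = 0.000176). Fosl1 rose with Trim AG by 0.72 ± 0.114 (adjusted p = 0.000671) over normoxic values of 63.5, 48.9 and 51.2 CPM. Egr1 was at 86.5, 75.4 and 71.6 CPM in Normoxia Trim AGU and at 53.0, 29.1 and 38.3 CPM in hypoxia, a fall by 0.93 (SE 0.196, adjusted p = 0.0121; 0.0516 without Normoxia Trim AGU replicate 1). Without the replicate 1 libraries whose Cav1 level went against their label, the values with Plus A were -1.35 for Ier3, -0.81 for Fos, -0.89 for Junb and 0.64 for Myc, with adjusted p of 0.0111 or less. Those with miR-125b were -0.80 for Ier3 and 0.67 for Myc, with adjusted p of 0.000159 or less. With these libraries left out, Egr1 was also called lower in hypoxia with miR-125b (log2 difference -0.589, adjusted p = 0.0313), just past the 1.5-fold limit. Jun, Fosl2 and Jund were called under none of the mimics. For Jun the interval with miR-125b ran from -0.16 to 0.40. Fosl2, at 38.4, 13.1 and 37.3 CPM in Hypoxia Trim AGU, had its widest interval there (-0.95 to 0.59), with replicate 2 far under its partners.

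**Figure D4:**
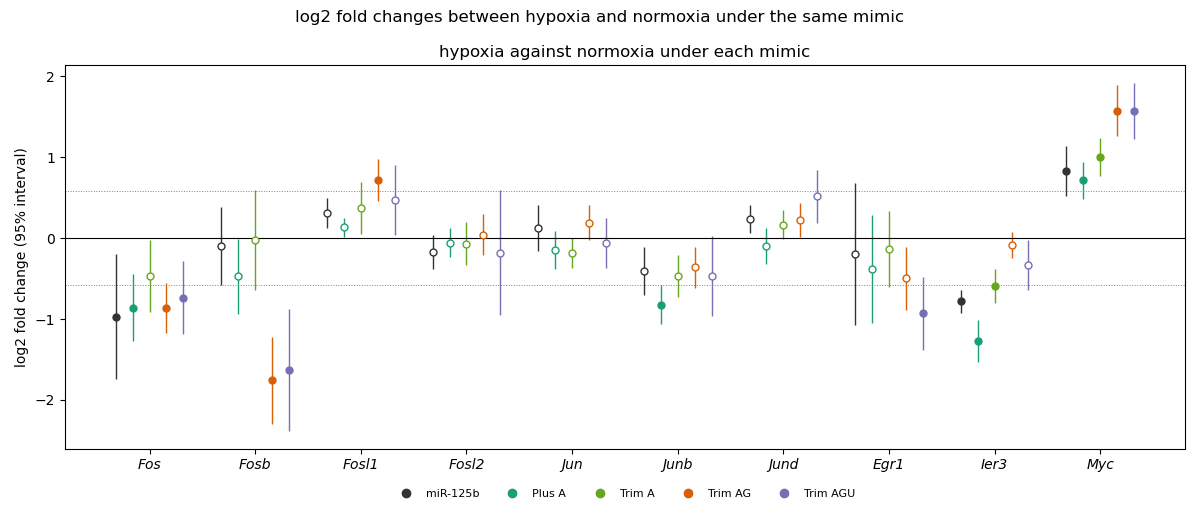
Log2 fold change of each gene in hypoxia against normoxia under the same mimic (colours), with 95% intervals; filled points are called, and dotted lines mark 1.5-fold. Myc is above the line under all 5 mimics (0.71 to 1.58), and Fosb falls by 1.75 and 1.63 with Trim AG and Trim AGU.

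Over the 11 groups the order of levels differed from gene to gene. Myc was highest in Hypoxia Trim AG (67.5 ± 9.07 CPM, SD, n = 3), followed by Trim AGU (53.7 ± 6.10 CPM) and Trim A (47.4 ± 1.49 CPM), neighbours whose libraries overlapped. A gap followed before Hypoxia miR-125b and Plus A (40.9 ± 1.26 and 38.6 ± 3.26 CPM), and another before Hypoxia MC and the normoxic groups, which overlapped in order. Ier3 was highest in Normoxia Trim AGU (100.3 ± 9.01 CPM) and Normoxia Trim AG (96.7 ± 0.954 CPM), which overlapped, then Hypoxia Trim AG (90.8 ± 1.09 CPM). Its lowest groups, Hypoxia Trim A, miR-125b and Plus A (42.8 ± 3.63, 36.9 ± 0.868 and 29.6 ± 4.13 CPM), were separate from one another. Jun stood apart in Hypoxia MC (207 ± 5.03 CPM) from all other groups with counts per library. Normoxia MC is not in this order, and its authors' mean for Jun was 5152 normalized counts, against 2615 in Normoxia Plus A. For Fosl2, Jund and Egr1 each group overlapped with the next in the order.

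The authors' mean normalized counts give the only view of Normoxia MC, beside Normoxia Plus A, with no spread and hence no test. Myc had 648 in Normoxia Plus A and 286 in Normoxia MC, Jun 2615 and 5152, and Ier3 1963 and 2689. Fosb had 50.7 and 73.1, Fos 163 and 148, and Fosl2 964 and 1260. For Junb the means were 3056 and 2763, for Jund 4573 and 4441, for Egr1 1528 and 1696 and for Fosl1 1528 and 1542. The Plus A mean takes in the replicate 1 whose Cav1 level went against its label.

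Promoter sequences, from 250 bases before to 50 bases after the annotated start, were found in the RefSeq table (GRCr8) for 6 of the 10 genes: Fosb, Fosl1, Fosl2, Junb, Jund and Egr1. Fos, Jun, Ier3 and Myc had no entry. Motifs were searched on both strands. The CArG box, the serum response factor motif, was found in Egr1 only, at positions -105 and -83 from the start, and in 1.64% of all 33469 promoters. The cAMP response element half-site TGACG, or CGTCA on the other strand, was found in Fosl1, Jund, Egr1 and Junb and in 21.2% of all promoters. The AP-1 motif TGANTCA was found in none of the 6 and in 7.33% of all promoters, and the Myc E-box CACGTG in none of the 6 and in 6.42%. The Egr motif, GCGTGGGCG or GCGGGGGCG, was found in Jund and Fosl2 and in 3.20% of all. These matches are letters in a window and say nothing of binding. The Fosl1 promoter is shown because Fosl1 is the AP-1 gene with an entry that was called higher against MC with both Trim AG and Trim AGU. It lies at chr1:212183635-212183934, plus strand, with the half-sites in capitals.
Fosl1 promoter: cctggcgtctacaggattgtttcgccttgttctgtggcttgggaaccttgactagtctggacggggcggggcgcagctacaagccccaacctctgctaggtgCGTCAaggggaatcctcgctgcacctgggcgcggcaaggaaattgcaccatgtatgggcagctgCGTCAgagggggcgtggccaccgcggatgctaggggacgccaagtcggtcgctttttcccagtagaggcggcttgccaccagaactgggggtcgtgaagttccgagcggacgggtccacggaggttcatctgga

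Genes around the 10 were read from lists. Of 29 other immediate early genes tested against MC in hypoxia, 8 rose and 1 fell with miR-125b, 9 and 1 with Plus A, 9 and 2 with Trim A, 19 and 2 with Trim AG, and 5 and 1 with Trim AGU. The shares of all genes called were 21.9, 24.8, 28.1, 37.2 and 23.8% in the same order. The median log2 difference was 0.16, 0.11, 0.32, 0.80 and 0.29, against medians over all genes within 0.02 of zero. Arc, a neuronal immediate early gene, went from 3.53 ± 0.175 CPM in MC to 15.2 CPM with Trim AG (log2 change 2.17 ± 0.13, adjusted p = 3e-06), and Klf2, a Krüppel-like factor, from 33.8 to 100.4 CPM (1.63 ± 0.11, adjusted p = 5.2e-06). Zfp36l1, an mRNA decay factor, fell by 1.45 (adjusted p = 3.4e-05). Between hypoxia and normoxia under the 5 mimics, 4 or 5 of these genes rose and 5 to 9 fell, against 20.9 to 32.8% of all genes called. The Trim AG effect relative to miR-125b was larger in hypoxia than in normoxia for 4 and smaller for 1 (11.3% of all genes were called), led by Cyr61 (1.17 ± 0.11), Atf3 (1.11 ± 0.25) and Dusp1 (0.93 ± 0.10). Among 11 other bZIP partners, 4 rose and 2 fell with Trim AG (median 0.40, against 37.2% of all genes called). Atf3, a stress-induced repressor that is also in the list above, rose by 1.33 and Atf4, the integrated stress response factor, by 0.82. Atf3 was also called higher with miR-125b (0.63), Plus A (0.59) and Trim A (0.67). Maf, of the same list, was called lower with those mimics (-1.07, -1.08 and -1.26). Atf4 was called higher with Trim AGU as well (0.80).

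Of 28 signalling genes upstream of AP-1 that were tested, 5 rose and 2 fell with Trim AG (median 0.09) and 2 rose and 1 fell with miR-125b (median -0.04), against 37.2 and 21.9% of all genes. Dusp5, a nuclear ERK phosphatase, rose by 1.42 ± 0.12 with Trim AG and by 0.66 ± 0.11 with miR-125b. Dusp4, at 0.941 CPM in MC, rose by 1.36 and 1.16 in the same order. Egfr was lower with Trim AG (log2 change -1.17, from 1.57 to 0.668 CPM). Rps6ka1 was lower with miR-125b (-0.90, from 4.15 to 2.17 CPM). Among known AP-1 targets, 1 rose and 2 fell of 15 with miR-125b (median -0.10), and 2 rose and 2 fell with Trim AG (median 0.16), against the same shares of all genes. Hmox1, haem oxygenase 1, rose by 0.67 with miR-125b and by 0.87 with Trim AG.

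Known Myc targets gave no lower call against MC. Of 20 tested, miR-125b raised 3, Plus A 5, Trim A 6, Trim AG 13 and Trim AGU 9, with median log2 differences of 0.37, 0.53, 0.54, 0.71 and 0.58. Since 21.9, 24.8, 28.1, 37.2 and 23.8% of all genes were called in these comparisons, the counts with miR-125b, Trim A and Plus A were below or near the background. In hypoxia against normoxia, where Myc also rose, 0 targets rose and 1 fell with miR-125b (median -0.12). Plus A gave 0 higher and 2 lower (-0.12), and Trim A 1 and 2 (0.03). Trim AG and Trim AGU each gave 4 and 2 (0.16 and 0.35). The shares of all genes called there were 20.9, 22.8, 26.5, 32.8 and 27.0% in the same order. Nop56, a snoRNP protein of ribosome assembly, rose from 107 to 179 CPM with miR-125b (0.77 ± 0.03) and to 251 CPM with Trim AG (1.29 ± 0.11). Odc1, the polyamine synthesis enzyme, rose from 365 to 607 CPM with miR-125b, and Mcm5, a replicative helicase subunit, from 17.2 to 51.5 CPM with Trim AG (1.64 ± 0.078, adjusted p = 1.2e-06). In the Myc network itself, of 10 genes tested, 0 rose and 2 fell with miR-125b (median -0.29) and 1 rose and 2 fell with Trim AG (median -0.30), near the 21.9 and 37.2% of all genes called. Mxd4, a Max partner that opposes Myc, fell from 195 CPM to 64.4 CPM with miR-125b (-1.56 ± 0.038, adjusted p = 2e-10) and to 40.4 CPM with Trim AG (-2.21 ± 0.081), and Mycl fell by 1.55 and 1.94. The gene that rose with Trim AG was Mxd1, another Max partner that opposes Myc, from 32.5 to 52.0 CPM (0.74 ± 0.072, adjusted p = 4.4e-05). The myoblast, cardiac and fibroblast marker sums given above moved in the same comparisons.

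Genes whose group means followed a member most closely were found by Pearson's r over the 11 groups among 9522 genes, as a description. For Myc these were Tfpt (r = 0.995), Ngdn (0.991) and Gar1 (0.987), all highest in Hypoxia Trim AG. For Ier3 they were Dusp6 (0.950), an ERK phosphatase, Serpinb9 (0.943) and S100a10 (0.938), and for Fosb Btbd3 (0.894), Wrnip1 (0.889) and Armcx4 (0.881). The groups share depth, mimic and culture conditions.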

How the data were processed

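Poly-A RNA of H9C2 cells was sequenced from non-stranded libraries, so reads of overlapping antisense genes cannot be told apart. HISAT2 and StringTie are named in the submitters' processing notes, without versions, and the genome build is not given in the sources used here. The authors deposited whole-number read counts per gene and FPKM per library, which the scripts used as deposited, and mean normalized counts per group, which serve here as a signal without replicates. Their fold changes and p-values were not used. Tables of 33 libraries were joined on the gene identifier, a gene absent from a table being set to 0. A gene left out of one table had at most 1 count per library where another table listed the same libraries.

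CPM were computed from library totals and are given for single libraries. Tests used edgeR 4.0.16 (R 4.3.3), with TMM scaling, filterByExpr and the quasi-likelihood F test, fitted on the libraries of the groups compared, over 14720 to 15603 genes, with Benjamini-Hochberg adjustment over all of them. The study's own test was DESeq2, run here (1.42.0) as an alternative. SE is the absolute log2 change divided by the square root of F. There were 18 comparisons of pairs of groups and 4 tests of differences between them. Alternatives were DESeq2, no filter on low counts, library totals in place of TMM, 1 fit of all libraries, a replicate block, a 2-fold or no fold threshold, each library left out, and both replicate 1 libraries that stood apart left out. The scripts were tested on simulated data. No replicate pair agreed within sampling noise (chi-square per gene 4.97 or more).

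The 10 genes and all gene lists were chosen with earlier results of these data known. The text names every member, at most the 3 called genes of largest change per list and comparison with at least 1 CPM, and for the 3 members of widest range the 3 genes most like them with at least 5 CPM. One called gene of the AP-1 target list is not reported here. Counting error limits Fosb most.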

Additional observations from a re-analysis of the deposited data

Results flagged for a closer look

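The effect of Trim AG relative to miR-125b differed between hypoxia and normoxia for 3 of the 10 genes, by a test of the difference itself (edgeR, Benjamini-Hochberg adjusted). For Fosb the difference was -1.69 on the log2 scale (95% interval -2.38 to -1.01): Trim AG lay under miR-125b in hypoxia and above it in normoxia. The normoxic rise of Fosb lost its call in most alternatives. Without both replicate 1 libraries whose Cav1 level went against their label, that rise was 0.44 (-0.02 to 0.90, adjusted p = 0.119). For Ier3 the difference between conditions was 0.66 (0.47 to 0.85), with a rise in both conditions that was larger in hypoxia. For Myc it was 0.70 (0.25 to 1.16), with a rise in hypoxia and a difference of 0.02 in normoxia, and 7 of the 18 alternatives lost this call. Oxygen, serum and glucose changed together, so which of them the difference goes with cannot be told apart. Hypoxia Trim AG also had the lowest summed myoblast and fibroblast markers among the groups of this test (257 to 400 and 6382 to 13410 CPM), whose part in it was not tested. The pattern was not particular to Trim AG in direction. Without both replicate 1 libraries, Trim AGU gave -1.40 for Fosb (95% interval -2.21 to -0.58, edgeR adjusted p = 0.153). It gave 0.45 for Ier3 (0.09 to 0.81, adjusted p = 0.250) and 0.88 for Myc (0.49 to 1.27, adjusted p = 0.0800). With every library kept, edgeR called none of the 10 genes for Trim AGU and DESeq2 called 2.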

How the results depend on the processing

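Of 220 values (10 genes in 22 tests), 50 were called, and none changed sign under a refit after being called. All refits kept 33 of the calls, and 17 were lost in at least 1; DESeq2 lost 4, library totals in place of TMM 4 and 1 fit of all libraries 5. Against MC in hypoxia, 12 higher calls became 3 at 2-fold and 21 with no fold threshold, and 9 lower calls became 4 and 15. For isomiRs against miR-125b in hypoxia, 3 higher calls became 7 with no fold threshold, and 3 lower calls became 9 with no fold threshold and 1 with no filter on low counts. In normoxia 3 higher calls became 0 at 2-fold, and 0 lower calls became 1 without replicate 1 of Normoxia miR-125b and Normoxia Plus A. For hypoxia against normoxia, 6 higher calls became 3 and 11 lower calls became 3 at 2-fold. For the difference between conditions, 2 higher calls became 0 at 2-fold, and 1 lower call became 2 with DESeq2 and with 1 fit of all libraries. Apart from the thresholds, whose own construction sets the count, the cause was not tested.

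Leaving out each library in turn gave 9 to 13 higher and 6 to 10 lower calls against MC, 2 to 3 and 1 to 4 for isomiRs in hypoxia, 2 to 3 and 0 to 1 in normoxia, 6 to 7 and 8 to 12 for hypoxia against normoxia, and 1 to 2 and 1 to 2 for the difference. Equal replicate numbers did not pair the libraries: correlations of same-numbered deviations ran from -0.253 to 0.106, and in 0 of 18 comparisons did every library correlate best with its own number. A fit with the replicate block lost 7 of the 50 calls, and 3 lower calls in hypoxia against miR-125b became 1. Library totals shifted the median of all genes by over 0.1 in 3 tests, most by -0.14 for Trim AGU against MC in hypoxia, with no change of direction among the calls. Depth limits Fosb, at 15 to 104 counts per library.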
